A study of Arabidopsis thaliana with 9 samples.

Results

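The UDP-glycosyltransferase (UGT) genes of Arabidopsis thaliana were followed in pistils before and after pollination. Members were all genes whose symbol starts with UGT in the platform annotation and that a probe set lists as its single gene. This gave 47 genes of 13356 genes listed alone on a probe set. Each member had 1 probe set with no suffix that marks shared sequence, and they fell into 11 UGT groups, named by number from UGT71 to UGT88. The reference annotation held 58 genes with a UGT symbol, so 11 were not members, and 4 of those lay on probe sets that list several genes. The rule uses the gene's name and no measured value.

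The 9 arrays fell into 3 groups of 3 biological replicates. All pistils were of stage 14, from plants of the Ler-0 ecotype that carry ms1 (male sterile 1) and set no functional pollen of their own. One group was left unpollinated. The second group was pollinated with wild-type pollen and the third with pollen of a triple mutant that carries the alleles myb97-1, myb101-4 and myb120-3, both in the Col-0 ecotype, and pistils were collected after 8 hours. Each collection pooled 100 pistils, and RNA of the pistil and of the pollen tubes inside it was measured together. MYB97, MYB101 and MYB120 are transcription factors of the pollen tube. The probe sets listing 1 gene included 0 of these 3, so the mutant labels were not checked against their transcripts.

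UGT enzymes transfer a sugar from a UDP-sugar, most often UDP-glucose, to small molecules such as flavonoids, phenylpropanoids, hormones and foreign compounds. The added sugar makes the acceptor more soluble and usually inactive or ready for storage in the vacuole, and beta-glucosidases can remove it again. In flowers, glycosylated flavonols and hydroxycinnamates accumulate in the pollen wall and in floral organs, and glucose conjugates help to set the level of free auxin, cytokinin, salicylate and abscisic acid.

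Intensity per probe set is given on the log2 scale, and differences are differences between group means of log2 intensity with the standard error (SE) of the limma fit. The threshold for passing was a Benjamini-Hochberg adjusted p under 0.05 over all 22746 probe sets, and only then is a gene said to have risen or fallen. Array medians were 103.3 to 104.7 in unpollinated pistils and at least 109.9 in pollinated ones. Mutant array 2 correlated most strongly with wild-type array 1 (r = 0.998 across probe sets, which are not independent), and it was below its group mean for all but 11 of the 47 members. Genes of the marker and related lists are called measured where a probe set lists them as its single gene. Others may lie on a probe set with several genes or on the 8730 probe sets with no listed gene. The 7 measured genes of 12 pollen and pollen tube markers had a summed intensity of 159.5 to 210.2 without pollen, 7091 to 8531 after wild-type pollen and 6350.2 to 7729 after mutant pollen. The 4 of 13 pistil markers measured summed to 3281 to 6465, 2011 to 2829 and 2615 to 2969 in the same order, and in each comparison with unpollinated pistils 1 of the 4 (SPT) passed as higher, 2 as lower and 1 did not pass. Of 6 markers of green and outer floral tissue, the 2 measured were RCA and LHCB4.2, both of green tissue, so the petal and sepal markers were not examined. These 2 fell from a sum of 14525 to 17337 without pollen to 7845 to 8285 after wild-type pollen and 7613 to 8718 after mutant pollen. The 2 of 7 anther and tapetum markers measured summed to 22.6 to 24.6 over all arrays, and with mutant pollen 1 of them passed as higher and 1 as lower. No deposited value was 0, the lowest being 6.4, and the part of these markers in the differences below was not tested.

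Pollination with wild-type pollen was followed by higher levels of 15 UGT genes and lower levels of 6, while 26 did not pass. That is 44.7% of the members, beside 43.6% of all probe sets called. These shares are not matched for level, since the median member mean was log2 4.90 and that of all probe sets 6.78. Dim probe sets passed less often, as given further below, and the family was not tested against this background. The unpollinated and wild-type pollen arrays did not overlap for 28 members (59.6%), beside 52.8% of all probe sets. By direction, 31.9% of members were higher against 23.4% of all probe sets, and 12.8% were lower against 20.2%. The median log2 difference of the 47 members was 0.10, beside 0.004 for all probe sets. With mutant pollen 17 members rose, 6 fell and 24 did not pass, which is 48.9% beside a background of 41.5%, with 36.2% higher against 22.3% and 12.8% lower against 19.2%. Arrays did not overlap for 26 members (55.3%), beside 50.5% of all probe sets. The median was 0.10, beside 0.01 for all probe sets. Both comparisons share the unpollinated arrays, so the 2 sets of values are given side by side and not as independent evidence of each other. In bulk pistils, fewer cells of a type and less RNA per cell cannot be told apart.

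The split between rises and falls depended on scaling. With each array's median subtracted, which shifted the all-probe-set median by -0.136 for wild-type and -0.11 for mutant pollen, the calls with wild-type pollen became 13 higher and 11 lower members. With mutant pollen they became 16 and 7. The median member difference turned to -0.039 with wild-type and -0.005 with mutant pollen. Over all probe sets the share of higher among calls went from 53.7% to 32.2% with wild-type pollen. With mutant pollen that share went from 53.8% to 35%. After renewed quantile normalization the calls were 14 higher and 10 lower for wild-type pollen, 15 and 10 for mutant pollen. Small differences below are relative to the scaling, while each called difference of at least 1 in size kept its sign and its call under both scalings.

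**Figure D1:**
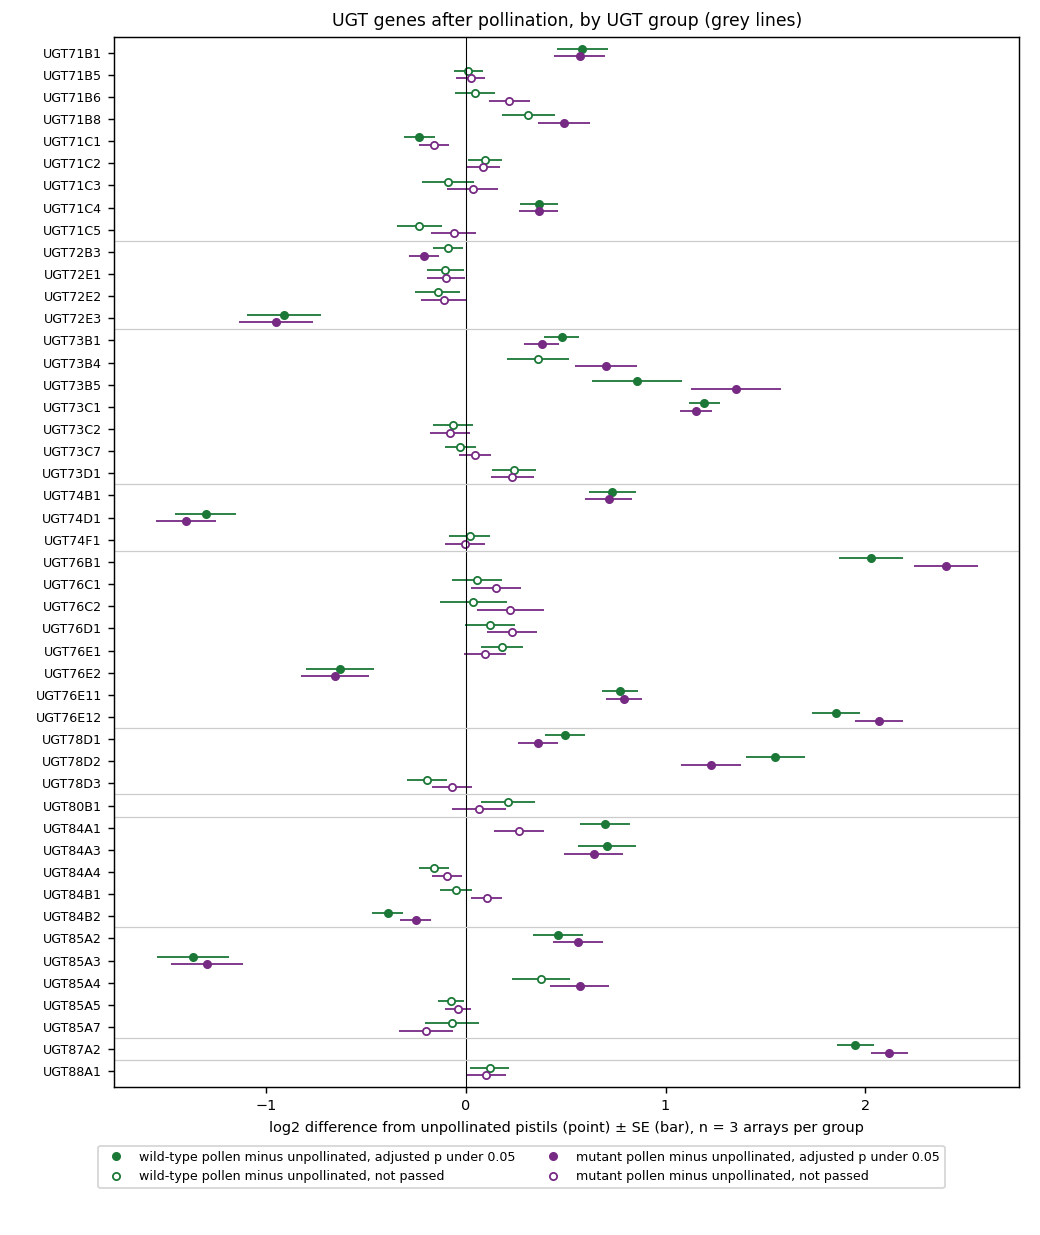
Log2 differences from unpollinated pistils (points) with SE (bars) for the 47 UGT genes, wild-type pollen in green and mutant pollen in purple, n = 3 arrays per group. Filled points passed at an adjusted p under 0.05, grey lines part the UGT groups, and most points lie near 0 while UGT76B1, UGT87A2 and UGT76E12 lie furthest to the right.

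Large changes were few. With wild-type pollen 5 members rose by a log2 of at least 1 and 2 fell by as much, which is 14.9% of members beside 7.25% of all probe sets (4.51% higher and 2.75% lower). With mutant pollen these counts were 6 and 2, or 17% beside 6.63% (4.05% higher and 2.58% lower). They were spread over UGT groups 73, 74, 76, 78, 85 and 87.

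**Figure D2:**
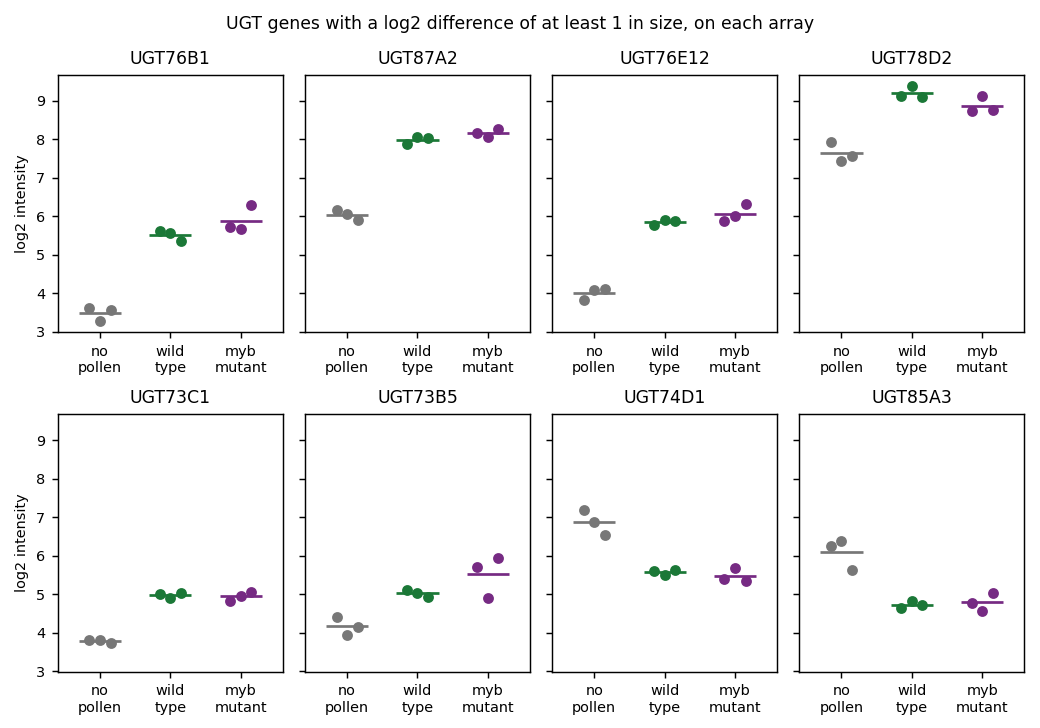
Log2 intensity on each of the 9 arrays (points) and group means (lines) for the 8 UGT genes that passed with a log2 difference of at least 1 in size in a comparison with unpollinated pistils. Pollinated arrays lie above all unpollinated ones in the first 6 panels and below them for UGT74D1 and UGT85A3.

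UGT76B1, which glucosylates isoleucic acid and salicylic acid and takes part in the control of defence, had the highest log2 difference in both comparisons when no constant was added to the intensities. Its log2 levels were 3.61, 3.29 and 3.56 without pollen, 5.61, 5.58 and 5.36 after wild-type pollen, and 5.72, 5.67 and 6.29 after mutant pollen. All pollinated arrays were well above all unpollinated ones. It rose 4.08-fold with wild-type pollen (log2 difference 2.03 ± 0.16 SE, n = 3 per group, limma adjusted p = 4e-06) and 5.30-fold with mutant pollen (2.41 ± 0.16, adjusted p = 1.06e-06). Because the unpollinated level is dim, adding 16 to every intensity before taking log2 lowered these differences to 1.18 and 1.47, still past the test but below those of UGT87A2 on that scale (1.72 and 1.88) and, with wild-type pollen, below that of UGT76E12 (1.21).

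Its group mates UGT76E12 and UGT76E11 rose as well. UGT76E12 had log2 levels of 3.82, 4.08 and 4.11 without pollen, 5.78, 5.92 and 5.87 after wild-type pollen and 5.89, 6.0 and 6.33 after mutant pollen. No pollinated array came near the unpollinated range. The rise was 3.61-fold with wild-type pollen (log2 1.85 ± 0.12, adjusted p = 9.03e-07) and 4.2-fold with mutant pollen (2.07 ± 0.12, adjusted p = 3.84e-07). With 16 added to every intensity its log2 differences were 1.21 and 1.38. UGT76E11, an enzyme known to glycosylate flavonoids, rose by a log2 difference of 0.77 ± 0.09 and 0.79 ± 0.09.

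The other members of group UGT76 did not share this pattern. UGT76E2 fell by 0.63 ± 0.17 with wild-type pollen and by 0.66 ± 0.17 with mutant pollen. Its log2 levels were 5.57 to 5.88 without pollen, 5.05 to 5.17 after wild-type pollen and 4.63 to 5.44 after mutant pollen, where the arrays spread most. UGT76C1 and UGT76C2, which attach glucose to the nitrogen of cytokinins, had log2 differences of 0.05 ± 0.13 and 0.04 ± 0.17 after wild-type pollen and 0.15 ± 0.13 and 0.22 ± 0.17 after mutant pollen, and did not pass. The UGT76C1 probe set was dim, at log2 levels of 3.82 to 4.35. UGT76D1, which acts on dihydroxybenzoic acids, and UGT76E1 did not pass either, at 0.12 ± 0.12 and 0.18 ± 0.11 with wild-type pollen. In all, 3 of 8 members of the group rose, 1 fell and 4 did not pass, in each comparison. Of all probe sets, 23.4% were called up and 20.2% down (wild-type pollen), or 22.3% and 19.2% (mutant pollen). The group was not tested against these shares.

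UGT87A2, which influences flowering time in Arabidopsis, had the smallest adjusted p of the family. Its log2 levels were 6.16, 6.05 and 5.91 before pollination, 7.88, 8.05 and 8.04 after wild-type pollen, and 8.17, 8.05 and 8.26 after mutant pollen. Replicates lay close together, and pollinated and unpollinated arrays were far apart. The rise was 3.86-fold (log2 1.95 ± 0.09, adjusted p = 6.21e-08) with wild-type and 4.35-fold (2.12 ± 0.09, adjusted p = 3.19e-08) with mutant pollen. It was the only member of its group.

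The flavonoid branch held the brightest member and another of the large rises. UGT78D2 adds glucose to flavonols and anthocyanidins, UGT78D1 adds rhamnose to flavonols and UGT78D3 adds arabinose to them. On the arrays, UGT78D2 had log2 levels of 7.94, 7.43 and 7.58 without pollen, 9.13, 9.38 and 9.09 after wild-type pollen, and 8.74, 9.13 and 8.76 after mutant pollen. Every pollinated array was above every unpollinated one. It rose 2.93-fold with wild-type pollen (log2 1.55 ± 0.15, adjusted p = 1.90e-05) and 2.34-fold with mutant pollen (1.23 ± 0.15, adjusted p = 0.00011).

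UGT78D1 was the member with the highest mean intensity, which describes its probe set and not its transcript amount relative to other genes. Array by array, its log2 levels were 10.26, 10.05 and 10.25 without pollen, 10.58, 10.64 and 10.83 after wild-type pollen and 10.40, 10.62 and 10.62 after mutant pollen. Both sets of pollinated arrays lay above the unpollinated ones and overlapped each other. It rose by 0.50 ± 0.10 after wild-type pollen and 0.36 ± 0.10 after mutant pollen (adjusted p = 0.00245 and 0.0149). The latter call was lost when unpollinated array 2 was left out (adjusted p = 0.0575), as when mutant array 2 (0.0539) or 3 (0.0567) was, and with array medians subtracted (0.0518). UGT78D3, which lies near UGT78D2 on chromosome 5, did not pass (-0.20 ± 0.10 and -0.07 ± 0.10), although with wild-type pollen it passed as lower once array medians were subtracted (adjusted p = 0.0291) or quantiles renewed (0.0119).

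A larger difference than that of any member lay outside the naming rule. Of the probe sets listing 1 gene, 4 more carry a UGT name as a synonym in the reference, and they were found after the member values had been seen. UF3GT, also named UGT79B1, adds xylose to anthocyanins. The log2 levels were 6.71, 6.05 and 6.34 without pollen, 10.28, 10.63 and 9.99 after wild-type pollen, and 10.07, 10.20 and 9.67 after mutant pollen. All pollinated arrays exceeded all unpollinated ones by a wide margin. It rose 15.3-fold with wild-type pollen (log2 3.93 ± 0.20, adjusted p = 1.28e-07) and 12.2-fold with mutant pollen (3.61 ± 0.20, adjusted p = 2.82e-07). AT5G54010, also named UGT79B6 and known to extend flavonol glucosides in Arabidopsis pollen, rose by 0.44 ± 0.11 and 0.43 ± 0.11. Levels were dim throughout, from 3.81 to 4.22 without pollen and 4.25 to 4.47 on the 6 pollinated arrays. GT72B1 (UGT72B1) and SGT (UGT80A2, a sterol glucosyltransferase) did not pass, at -0.06 ± 0.14 and 0.15 ± 0.08 with wild-type pollen.

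Of the genes that make the flavonoid acceptors, 3 of 13 in the list were listed alone on a probe set, and the others were not examined. DFR, which commits the pathway to anthocyanidins, had log2 levels of 7.89, 7.89 and 7.79 without pollen, 9.41, 9.95 and 9.07 after wild-type pollen and 9.42, 9.46 and 9.04 after mutant pollen. All pollinated arrays were above the unpollinated ones. DFR rose 3.07-fold (log2 1.62 ± 0.19) and 2.73-fold (1.45 ± 0.19). CHIL, a chalcone isomerase-like gene of flavonoid synthesis, and BAN, the anthocyanidin reductase gene, did not pass at 0.21 ± 0.16 and 0.25 ± 0.11 with wild-type pollen. For BAN the pollinated arrays (8.04 to 8.15) still lay above the unpollinated ones (7.54 to 7.99).

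**Figure D3:**
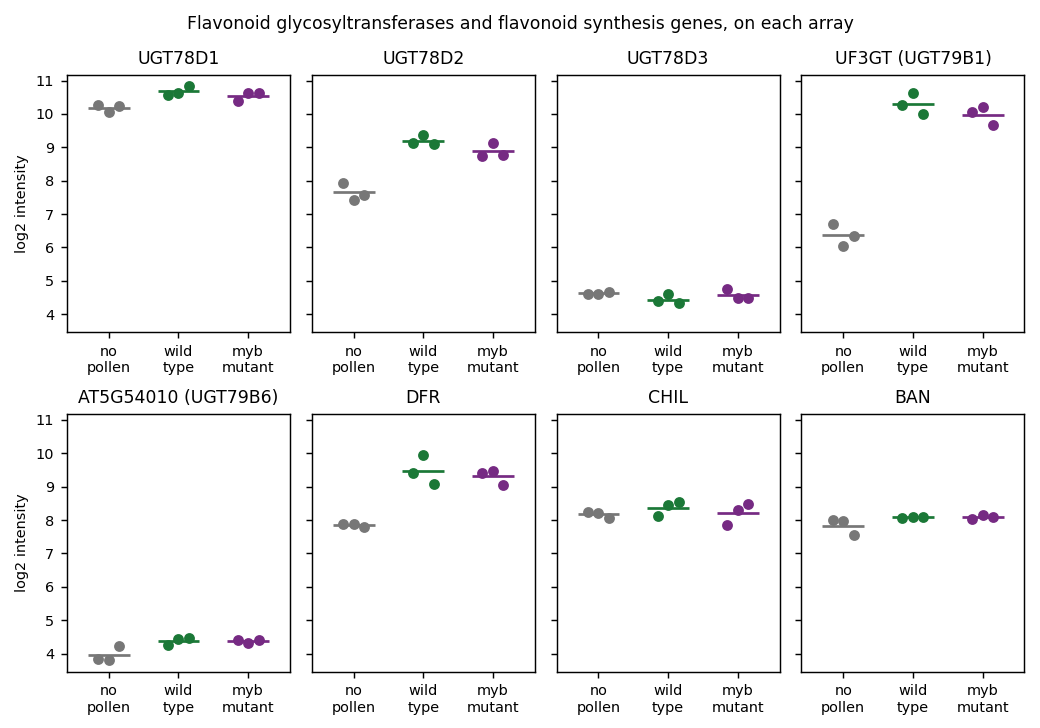
Log2 intensity on each of the 9 arrays (points) and group means (lines) for 5 glycosyltransferase genes of flavonoids and 3 flavonoid synthesis genes. UF3GT, DFR and UGT78D2 lie clearly higher on pollinated arrays, and UGT78D1 and AT5G54010 a little higher. BAN lies slightly higher without passing, and UGT78D3 and CHIL lie near their unpollinated level.

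Group UGT73 includes enzymes that add a sugar to foreign compounds and others induced by stress and pathogens. Of its 7 members 3 rose after wild-type pollen and 4 after mutant pollen, and none fell. Among all probe sets, 23.4% passed upward and 20.2% downward in the former comparison, 22.3% and 19.2% in the latter. The counts of these 7 genes were not tested against that background. UGT73C1, which acts on cytokinins and on the explosive TNT, had log2 levels of 3.82, 3.81 and 3.74 without pollen, 5.01, 4.91 and 5.03 after wild-type pollen and 4.83, 4.95 and 5.05 after mutant pollen. Replicates were tight, and pollinated arrays were far above unpollinated ones. It rose 2.29-fold (log2 1.19 ± 0.08, adjusted p = 9.19e-07) and 2.22-fold (1.15 ± 0.08, adjusted p = 1.29e-06). With 16 added to each intensity the log2 differences were 0.68 and 0.65.

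UGT73B5, a gene of the response to pathogens and oxidative stress, had log2 levels of 4.41, 3.94 and 4.15 without pollen, 5.11, 5.04 and 4.93 after wild-type pollen, and 5.70, 4.91 and 5.95 after mutant pollen. Mutant array 2 lay just below the wild-type arrays, and the other mutant arrays lay above them. The rise was 1.81-fold with wild-type pollen (log2 0.86 ± 0.22, adjusted p = 0.0107) and 2.55-fold with mutant pollen (1.35 ± 0.22, adjusted p = 0.000844). With 16 added to each intensity the log2 differences were 0.51 and 0.88, both past the test. Its neighbour UGT73B4 rose with mutant pollen (0.70 ± 0.16, adjusted p = 0.00454). With wild-type pollen UGT73B4 stood at 0.36 ± 0.16 (adjusted p = 0.0858), and this passed without mutant array 2 (adjusted p = 0.0271), without mutant array 3 (0.0436) and when the mutant group was left out of the fit (0.024). UGT73B1 rose by 0.48 ± 0.09 and 0.38 ± 0.09. UGT73C2, UGT73C7 and UGT73D1 did not pass, with log2 differences of -0.06 to 0.24 with wild-type pollen. UGT73D1 passed with wild-type pollen without unpollinated array 1 (adjusted p = 0.0398) and with a replicate block (0.0362), and likewise with mutant pollen (0.0462 and 0.0437).

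Members of several groups conjugate the hormones jasmonate, auxin, salicylate and abscisic acid. UGT74D1, which acts on jasmonate and on oxidised auxin, had log2 levels of 7.20, 6.88 and 6.54 without pollen, 5.59, 5.50 and 5.62 after wild-type pollen and 5.39, 5.69 and 5.34 after mutant pollen. All 6 pollinated arrays were below every unpollinated array, which spread more. It fell 2.47-fold (log2 -1.30 ± 0.15, adjusted p = 7.50e-05) and 2.64-fold (-1.40 ± 0.15, adjusted p = 4.92e-05). UGT84B2, which can use auxin as an acceptor, fell by 0.39 ± 0.08 with wild-type pollen and by 0.25 ± 0.08 with mutant pollen. Its probe set was among the dimmest of the family, at 3.43 to 3.90. The call with mutant pollen was lost on leaving out unpollinated array 1 (adjusted p = 0.0651), unpollinated array 3 (0.0624), mutant array 2 (0.0888), mutant array 3 (0.085) or the wild-type group (0.0567), and with 16 added to each intensity (0.0628).

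UGT84B1, the main auxin glucosyltransferase of the family, stood at log2 levels of 3.85 to 4.15 on all 9 arrays and did not pass (-0.05 ± 0.08 with wild-type and 0.10 ± 0.08 with mutant pollen). UGT74F1, which makes salicylate glucoside, did not pass either (0.02 ± 0.10 and -0.002 ± 0.10). Of the genes for abscisic acid glucosylation, UGT71B6 stood at 0.05 ± 0.10 and 0.22 ± 0.10 and UGT71C5 at -0.23 ± 0.11 and -0.06 ± 0.11, and neither passed. The UGT71B6 probe set was dim, at log2 levels of 3.83 to 4.32. With wild-type pollen UGT71C5 passed as lower without mutant array 2 (adjusted p = 0.0425), with array medians subtracted (0.0249) and with quantiles renewed (0.0265). UGT71B8 stood at 0.31 ± 0.13 with wild-type pollen, which passed without unpollinated array 3 (adjusted p = 0.0193), and rose by 0.49 ± 0.13 with mutant pollen. Its probe set was dim as well, at 3.75 to 4.66. UGT74B1, which adds the glucose in glucosinolate synthesis, rose by 0.73 ± 0.12 and 0.72 ± 0.12. Array by array, its log2 levels were 6.73, 6.94 and 7.06 without pollen and 7.47 to 7.81 on the pollinated arrays. Of 19 genes of glucosinolate synthesis only BCAT4 was listed alone on a probe set, and it did not pass (0.92 ± 0.37 with wild-type pollen).

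Phenylpropanoid enzymes fell into 2 branches. In group UGT72, UGT72E1, UGT72E2 and UGT72E3 glucosylate monolignols, the building blocks of lignin, or their aldehydes. UGT72E3 had log2 levels of 6.02, 6.25 and 5.44 without pollen, 4.80, 5.05 and 5.13 after wild-type pollen and 4.91, 4.80 and 5.14 after mutant pollen. All pollinated arrays lay below the unpollinated ones, and unpollinated array 3 was nearest to the pollinated ones. It fell by 0.91 ± 0.18 with wild-type pollen and by 0.95 ± 0.18 with mutant pollen (adjusted p = 0.00264 and 0.00219). UGT72E2 stood at -0.14 ± 0.11 and -0.11 ± 0.11 and did not pass, but passed as lower after renewed quantile normalization (adjusted p = 0.0205 and 0.0416). UGT72E1, the member with the lowest mean intensity, had log2 levels of 3.69, 3.61 and 3.70 without pollen, 3.50, 3.47 and 3.72 after wild-type pollen and 3.72, 3.49 and 3.50 after mutant pollen. Its groups overlapped, and it did not pass (-0.10 ± 0.09 in both comparisons). UGT72B3 was at -0.09 ± 0.08 with wild-type pollen, which passed with array medians subtracted (adjusted p = 0.0334). It was at -0.21 ± 0.08 with mutant pollen, just past the test (adjusted p = 0.0492), and this call was lost in 11 of 15 alternatives, including without each of unpollinated arrays 1, 2 and 3, wild-type arrays 1 and 2 and mutant arrays 1, 2 and 3 (adjusted p of 0.05003 to 0.121).

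In group UGT84, UGT84A1, UGT84A3 and UGT84A4 form glucose esters of hydroxycinnamic acids such as sinapate. UGT84A1 rose by 0.70 ± 0.12 with wild-type pollen (adjusted p = 0.00113) and stood at 0.27 ± 0.12 with mutant pollen, which did not pass (adjusted p = 0.109) but did without wild-type array 1 (0.0378). The log2 levels were 6.58, 6.50 and 6.68 without pollen, 6.99, 7.41 and 7.45 after wild-type pollen and 6.77, 6.99 and 6.80 after mutant pollen. The mutant arrays lay between the other groups, and mutant array 2 reached wild-type array 1. UGT84A3 rose in both comparisons, by 0.71 ± 0.15 and 0.64 ± 0.15. UGT84A4 stood at -0.16 ± 0.08 and -0.09 ± 0.08 and did not pass. With wild-type pollen it passed as lower once array medians were subtracted (adjusted p = 0.00888) or quantiles renewed (0.00386), and with mutant pollen under the latter (0.00966).

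Of 20 genes of phenylpropanoid and sinapate synthesis 3 were listed alone on a probe set. CCR2, a cinnamoyl-CoA reductase gene, rose by 1.64 ± 0.16 and 1.88 ± 0.16, and HCT, a gene of the shared route to lignin precursors, rose by 0.59 ± 0.09 and 0.58 ± 0.09. ALDH2C4, which makes ferulate and sinapate, did not pass (0.18 ± 0.08 with wild-type pollen). SHT, the 1 measured gene of 5 for hydroxycinnamoyl spermidines of the pollen coat, fell by 0.31 ± 0.11 and by 0.34 ± 0.11 from a dim level. USP, the 1 measured gene of 29 for UDP-sugar supply, rose by 0.40 ± 0.10 and 0.32 ± 0.10.

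Group UGT85 held a large fall and smaller rises. UGT85A3 had log2 levels of 6.24, 6.38 and 5.64 without pollen, 4.64, 4.81 and 4.71 after wild-type pollen and 4.78, 4.56 and 5.04 after mutant pollen. Every pollinated array was below every unpollinated one. It fell 2.58-fold (log2 -1.37 ± 0.18, adjusted p = 0.000172) and 2.45-fold (-1.29 ± 0.18, adjusted p = 0.000275). With 16 added to each intensity its log2 differences were -0.99 and -0.94, both past the test. UGT85A2 rose by 0.46 ± 0.12 and 0.56 ± 0.12, but these calls were lost with quantiles renewed (adjusted p = 0.196 and 0.0532), the former also with array medians subtracted (0.06). UGT85A4 stood at 0.38 ± 0.15 with wild-type pollen (adjusted p = 0.0586). It passed there without wild-type array 2 (adjusted p = 0.0399) or mutant array 1 (0.021), when the mutant group was left out of the fit (0.0346) and with a replicate block (0.0253). It rose by 0.57 ± 0.15 with mutant pollen, a call lost after renewed quantile normalization (0.0791). UGT85A5 and UGT85A7 both stood at -0.07 with wild-type pollen (SE 0.06 and 0.13) and did not pass. UGT85A5 passed as lower there with array medians subtracted (adjusted p = 0.0238), and UGT85A7, at -0.20 ± 0.13 with mutant pollen, passed as lower after renewed quantile normalization (0.0249).

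Among the remaining members, UGT71B1 rose by 0.58 ± 0.13 and 0.57 ± 0.13, and UGT71C4 by 0.37 ± 0.10 in both comparisons, where the wild-type pollen call did not survive subtraction of array medians (adjusted p = 0.0635). UGT71C1 fell by 0.23 ± 0.08 with wild-type pollen, a call lost on leaving out unpollinated array 2 (adjusted p = 0.093), wild-type array 1 (0.107) or wild-type array 2 (0.0586), and with 16 added to each intensity (0.0658). With mutant pollen UGT71C1 stood at -0.16 ± 0.08, which passed once array medians were subtracted (adjusted p = 0.0156) or quantiles renewed (0.0316). UGT71B5, UGT71C2 and UGT71C3 did not pass, with log2 differences between -0.09 and 0.10. The sterol glucosyltransferase gene UGT80B1 (0.21 ± 0.13 and 0.07 ± 0.13) and UGT88A1 (0.12 ± 0.10 and 0.10 ± 0.10) did not pass. Both had bright probe sets, at log2 levels of 6.96 to 7.53 and 8.84 to 9.21. Of the 13 members whose mean level lay under the lower quartile of all probe sets (log2 4.29), 2 passed after wild-type pollen and 3 after mutant pollen, while 10 and 9 of the 12 members above the median (log2 6.78) passed. Of all probe sets in the lower band 20.5% and 19.5% passed, and of those in the upper band 50.4% and 47.3%.

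UGT genes often lie in rows along the chromosome. With fewer than 5 protein-coding genes between neighbours in the order of the TAIR10.1 annotation, 31 members fell into 13 rows of 2 to 4 genes and 16 stood alone. In 1 of 13 rows every member rose with wild-type pollen, the pair UGT76E12 and UGT76E11 on chromosome 3, and in 2 rows none passed. Of all 47 members 31.9% were higher in that comparison, so rows in which every member rises would be few in any case. The row UGT85A7, UGT85A2, UGT85A5 and UGT85A3 on chromosome 1 held a rise, a fall and 2 members that did not pass, with a span of 1.83 between the log2 differences. The pair UGT78D3 and UGT78D2 spanned 1.75, and UGT73C1 and UGT73C2 on chromosome 2 spanned 1.26. UGT76C2 and UGT76C1 on chromosome 5 were closest, at 0.016. With mutant pollen every member rose in 2 rows, UGT76E12 with UGT76E11 and UGT73B5 with UGT73B4, and no member passed in 3. These counts and spans are a description, were not set against those of other neighbouring genes and were not tested.

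**Figure D4:**
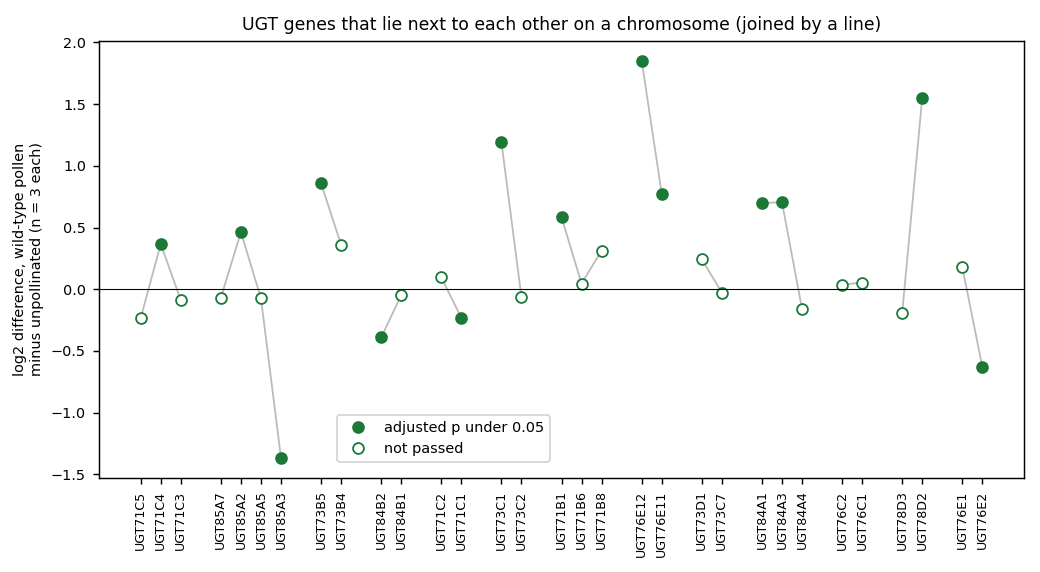
Log2 difference of wild-type pollen minus unpollinated (n = 3 arrays per group) for the 31 UGT genes that have a UGT neighbour, in chromosome order, with a grey line joining each of the 13 rows. Filled points passed at an adjusted p under 0.05, and within rows such as UGT73C1 with UGT73C2 the points lie far apart.

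Setting mutant against wild-type pollen asks which transcripts of pollinated pistils depend on the MYB factors carried by the pollen. None of the 47 members passed (limma, 0 higher and 0 lower), beside a background of 0.312% of all probe sets called (0.0264% higher and 0.286% lower). At an unadjusted p under 0.05 there were 2 members, 4.26%, beside 4.79% of all probe sets. These were UGT84A1, lower with mutant pollen by a log2 difference of -0.43 ± 0.12 (95% interval -0.70 to -0.16, adjusted p = 0.520), and UGT76B1 at 0.38 ± 0.16 (0.02 to 0.73, adjusted p = 0.998). Mutant and wild-type arrays did not overlap for 3 members (6.38%), UGT76B1, UGT84B1 and UGT84B2, beside 9.96% of all probe sets. The intervals of UGT73B5 at 0.49 ± 0.22 (-0.005 to 0.99), UGT73B4 at 0.34 ± 0.16 (-0.0006 to 0.69) and UGT78D2 at -0.32 ± 0.15 (-0.65 to 0.01) also leave room for differences. For UGT87A2 the interval was -0.03 to 0.37, and for UGT73C1 it was -0.22 to 0.13. A difference that did not pass is not shown to be absent. The median difference of the members was 0.02.

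**Figure D5:**
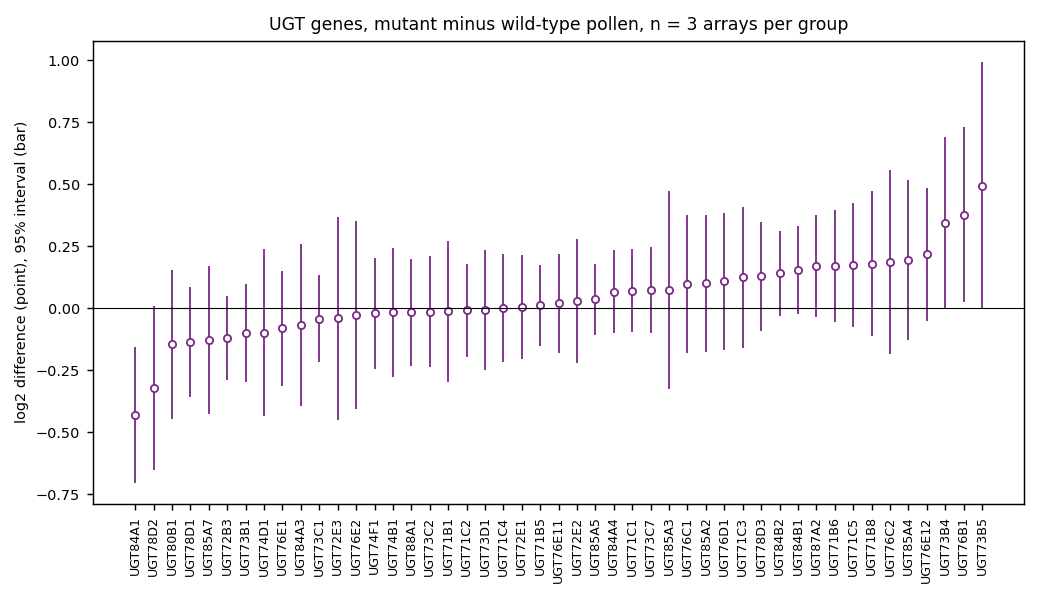
Log2 difference of mutant minus wild-type pollen (points) with its 95% interval (bars) for the 47 UGT genes in order of their difference, n = 3 arrays per group. The points run from -0.43 for UGT84A1 to 0.49 for UGT73B5, and none passed at an adjusted p under 0.05.

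The beta-glucosidases (BGLU), some of which remove the sugars that UGT enzymes add, are the related family with the widest coverage, 20 genes measured of 40 with such a symbol. With wild-type pollen 7 rose, 5 fell and 8 did not pass, and with mutant pollen the counts were again 7, 5 and 8 (7, 3 and 10 without mutant array 2). Over all probe sets 43.6% passed with wild-type pollen, 23.4% higher and 20.2% lower, and 41.5% with mutant pollen. The median log2 difference of the 20 genes was 0.01 in each comparison. BGLU45 and BGLU46, which hydrolyse monolignol glucosides, fell, with log2 differences of -2.73 ± 0.14 and -2.22 ± 0.09 for wild-type pollen and -2.46 ± 0.14 and -2.05 ± 0.09 for mutant pollen. BGLU47 stood at -0.03 ± 0.10 and 0.01 ± 0.10 on a dim probe set and did not pass. Monolignol glucosides are the known products of the UGT72E enzymes, of which UGT72E3 fell while UGT72E1 and UGT72E2 did not pass. A link between these genes was not tested. BGLU36 rose by 2.65 ± 0.24 and 1.95 ± 0.24, BGLU28 by 1.77 ± 0.30 and 1.06 ± 0.30 and BGLU15 by 1.71 ± 0.10 and 1.91 ± 0.10. Without pollen BGLU36 was dim, at log2 levels of 3.46 to 3.73. Its mutant array 1 (4.88) lay below mutant arrays 2 and 3 (5.96 and 5.85). The unpollinated arrays of BGLU28 spread from 6.58 to 7.90. BGLU44, added after its values were seen, rose by 1.44 ± 0.18 and 1.14 ± 0.18. Between mutant and wild-type pollen 0 of the 20 passed (limma), beside 0.312% of all probe sets. At an unadjusted p under 0.05 there were 2 of the 20, beside 4.79% of all probe sets. These were BGLU28 at -0.71 ± 0.30 (adjusted p = 0.998) and BGLU36 at -0.70 ± 0.24 (adjusted p = 0.831). Of the 20 genes, 9 had a mean level under the lower quartile of all probe sets.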

How the data were processed

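Array intensity per probe set was used as deposited by the authors. Per the submitters' processing notes RMA, Affymetrix Expression Console and Partek were used, with no version named. The intensity values are linear, from 6.4 to 27175.1, so log2 was taken first. Scanner files and detection calls were not used here, so no probe set is called absent, and the number of arrays limits the precision. After 64 control probe sets were left out, 22746 remained, of which 13513 listed 1 gene, 503 several and 8730 none. All 47 members matched the TAIR10.1 reference table. Sequences were not used here.

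limma 3.58.1 in R 4.3.3 was fitted to all 9 arrays with 1 mean per group (6 residual and 4.24 prior degrees of freedom), and tested on simulated data. Every member could be named. Values on every array were given for members past the test with a log2 difference of at least 1 in size and for the highest and lowest by mean level, and were added for others after their values were seen. The members, related gene lists and markers were chosen with earlier results of these data known, and lists are described without a test of the list. The arrays were not treated as paired by replicate number, since only 4 of 9 same-numbered pairs had deviations correlated above 0.1. With 3 arrays per group this cannot exclude pairing, and the sample titles do not state it. The labels call the arrays biological replicates and give no collection time for unpollinated pistils, so time and pollination cannot be told apart. Alternatives covered scaling, moderation, samples, dim probe sets, the start of the log scale, the replicate block, membership and each array in turn.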

Additional observations from a re-analysis of the deposited data

How the results depend on the processing

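With wild-type pollen minus unpollinated, the 15 higher members stayed at 13 to 17 over the alternatives that leave out no single array and at 15 to 16 with an array left out. The 6 lower members became 11 with array medians subtracted and 10 after renewed quantile normalization, and were 5 to 7 with an array left out. The median of 0.10 became -0.039 with array medians subtracted, 0.013 after renewed quantile normalization and 0.29 with dim probe sets left out, which removes members, and was 0.069 to 0.136 with an array left out. With mutant pollen minus unpollinated, the 17 higher members were 15 to 19 and 16 to 18, and the 6 lower became 10 after renewed quantile normalization and 4 to 6 with an array left out. That median of 0.10 became -0.005 with array medians subtracted, 0.023 after renewed quantile normalization and 0.25 with dim probe sets left out, and was 0.076 to 0.208 with an array left out. Between mutant and wild-type pollen 0 members passed under every alternative, and the median was -0.002 to 0.084 with an array left out. Subtracting array medians moves every member difference by the same amount, -0.136 with wild-type and -0.11 with mutant pollen. Apart from that and the removal of dim members, the cause of these shifts was not tested. Over single members, 36 of 44 calls held in every alternative and 8 were lost in at least 1. Of 97 differences without a call 16 gained one, and no called difference changed sign. All 16 gains fell in the comparisons with unpollinated pistils. There, 26 (wild-type pollen) and 24 (mutant pollen) had lacked a call. The remaining 47 set mutant against wild-type pollen, and none of these gained one. The replicate block lost the UGT72B3 call with mutant pollen (adjusted p = 0.0657) and added UGT73D1 in both comparisons and UGT85A4 with wild-type pollen. Same-numbered arrays had deviations correlated from -0.162 to 0.313, and 3 of 9 arrays were closest to an array of their own number. These values do not settle whether the numbers pair the arrays. Averaging several probe sets of a gene could not be run, since no member has more than 1.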
